A study of Homo sapiens with 12 samples.

Results

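ENAH, TAGLN, TNS3 and PALMD are 4 actin-linked genes that were chosen on their measured fold changes in these arrays. They were found by gene symbol, and each was read by 1 transcript cluster (the array's probe set for a gene), so that 4 of 53617 transcript clusters are described. ENAH was read by transcript cluster 16699904, TAGLN by 16731654, TNS3 by 17057525 and PALMD by 16667530. Their levels in the 3 lines are therefore a description, and no test was run on them. RNA levels were read with Affymetrix Human Gene ST arrays in sub-clones of BT-549, a widely used mesenchymal-like line of human triple-negative breast cancer, and every sub-clone was read on 4 arrays. The empty vector was present in BT-EV (labelled as a control shRNA), and BT-A6sh5 and BT-A6sh2 carried shRNA-5 and shRNA-2 against annexin A6 (ANXA6), which binds membranes when Ca2+ rises. All cells were grown in the same serum-containing medium. Each line is a single stably transfected derivative, so that the effect of an shRNA and the history of its line cannot be told apart. The titles call the 4 arrays of a line biological replicas and the study calls them technical, so the p-values measure only the spread between these arrays. The description of BT-A6sh2 replicate 1 names shRNA-5, while its title and transfectant name shRNA-2, and it was kept in BT-A6sh2.

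Actin filaments grow at their barbed ends, are bundled and crosslinked by side-binding proteins, and are tied to the membrane and to integrins at focal adhesions. ENAH (Mena) belongs to the Ena/VASP family, which holds barbed ends open for growth at the leading edge, in filopodia and at adhesions, and it is known for its part in breast cancer cell invasion. TAGLN (transgelin, SM22-alpha) binds and crosslinks actin filaments and is a classic smooth muscle gene under the control of serum response factor and TGF-beta. TNS3 (tensin 3) binds the cytoplasmic tails of integrin beta chains and so joins adhesions to actin. PALMD (palmdelphin) is the cytosolic relative of the paralemmins, proteins that take part in membrane and cell shape.

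The promoter windows of ENAH and PALMD are shown because these are the members whose levels in BT-A6sh5 stood apart from both other lines while BT-EV and BT-A6sh2 overlapped. Each window runs from upstream of a RefSeq transcript start into the transcript (GRCh38.p14), 5′ to 3′ along the strand of the gene, with every CpG pair in capitals. The ENAH window lies at chr1:225653074-225653373 on the minus strand and the PALMD window at chr1:99645863-99646162 on the plus strand.
ENAH: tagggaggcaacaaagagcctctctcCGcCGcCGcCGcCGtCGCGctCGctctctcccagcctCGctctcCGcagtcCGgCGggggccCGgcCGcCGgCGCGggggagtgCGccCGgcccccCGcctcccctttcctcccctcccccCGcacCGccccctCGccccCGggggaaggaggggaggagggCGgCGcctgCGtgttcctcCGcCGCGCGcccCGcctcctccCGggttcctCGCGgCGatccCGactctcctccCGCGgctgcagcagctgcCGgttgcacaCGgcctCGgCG
PALMD: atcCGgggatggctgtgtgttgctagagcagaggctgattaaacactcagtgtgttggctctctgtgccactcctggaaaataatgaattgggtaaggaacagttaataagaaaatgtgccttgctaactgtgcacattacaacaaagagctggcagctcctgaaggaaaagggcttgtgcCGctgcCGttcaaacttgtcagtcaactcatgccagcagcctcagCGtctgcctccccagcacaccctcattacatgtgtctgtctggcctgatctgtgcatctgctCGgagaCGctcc
The ENAH window held 43 CpG pairs and 79.0% G and C, and the PALMD window 6 CpG pairs and 51.0%. Over 35114 RefSeq windows of the same length, the median was 14 CpG pairs and 58.7% G and C. With the windows of TNS3, 5 windows of 3 members were searched on both strands for the CArG box of serum response factor, the MCAT element GGAATG and the AP-1 element TGANTCA. No window of TAGLN was available, so that gene was not searched. The motifs were found in 0 of the 5 windows, and in 1.29%, 14% and 7.71% of all windows, respectively. This says only that these letters are not in these windows.

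In the array values below, a level is the RMA log2 signal of a transcript cluster, a difference is the mean of 1 line minus that of another, and 1 log2 unit is a doubling. The targeted gene, ANXA6, was at 11.41 ± 0.0258 (SD, n = 4) in the control line BT-EV, at 8.78 ± 0.0959 in BT-A6sh5 and at 10.45 ± 0.108 in BT-A6sh2. Its level fell by 2.63 in BT-A6sh5 (SE 0.0855, limma's adjusted p = 2.21e-09) and by 0.96 in BT-A6sh2 (adjusted p = 0.000158). BT-A6sh2 replicates 1 and 3 stood apart, as their values spread less over the transcript clusters (SD 2.18 and 2.19) than those of the other 10 (2.26 to 2.33). The median level of an array lay between 4.92 and 5.05, and 0 pairs of arrays held identical values. The 36 hybridization controls, foreign transcripts added to each sample, averaged 8.10, 8.15, 8.26 and 8.29 in replicates 1 to 4 of BT-EV. They averaged 8.50, 8.75, 8.87 and 8.92 in BT-A6sh5 and 9.01, 9.04, 9.05 and 8.66 in BT-A6sh2. In this order they climbed from array to array except at the last, and BT-EV did not overlap the knockdown lines. Their part in the results was not tested, apart from a fit with their mean as a covariate. Its values are given below for PALMD and ENAH, and for TAGLN and TNS3 only the direction and a bound on the move. That fit cannot separate the controls from the lines. All 7 measured mesenchymal markers of 8, among them VIM at 10.64 and FN1 at 12.35 in BT-EV, lay above the median transcript cluster. Of the 8 measured epithelial markers of 9, 5 lay above it too (KRT18, KRT8, ESRP2, CLDN4 and KRT19), with KRT18 at 7.10 in BT-EV, and EPCAM, ESRP1 and GRHL2 lay below, with EPCAM at 3.47. The summed unlogged level of those 8 was 393 to 428 in BT-EV, 351 to 377 in BT-A6sh5 and 321 to 388 in BT-A6sh2. Of the leukocyte and endothelial markers, 3 of 5 were measured, and their sum of 1981 to 2375 in BT-EV, 2918 to 3412 in BT-A6sh5 and 2101 to 2138 in BT-A6sh2 was highest in the line where ENAH and PALMD were high. It came from CD68 (mean 11.55 in BT-A6sh5 and 11.01 in BT-A6sh2), a lysosomal protein of macrophages that other cells also make, while the endothelial PECAM1 was at 4.43 and 4.47 there, below the median, and VWF at 5.13 and 4.82, on either side of it. The part of these markers in the results was not tested. Of the smooth muscle markers, the cell type TAGLN is best known from, 3 of 5 were measured (DES, LMOD1 and MYOCD). The summed unlogged level of those 3 was 134 to 163 in BT-EV, 149 to 192 in BT-A6sh5 and 134 to 230 in BT-A6sh2, and so overlapped between the lines. MYOCD, the smooth muscle co-activator, averaged 4.29, 4.37 and 4.35.

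PALMD had the largest range of the 4 genes. Its levels in replicates 1 to 4 were 4.90, 5.06, 4.83 and 5.10 in BT-EV. In BT-A6sh5 they were 11.16, 11.15, 11.38 and 11.27. In BT-A6sh2 they were 4.67, 4.67, 5.54 and 4.70. All BT-A6sh5 arrays thus stood far above the other 8 arrays, and BT-EV and BT-A6sh2 overlapped. The BT-A6sh5 mean of 11.24 ± 0.107 (SD, n = 4) was 6.27 above the BT-EV mean of 4.97 ± 0.128 (SE 0.179), a 77.1-fold difference, with 6.05 between the nearest arrays. The BT-EV level lay at the median of its arrays (4.97 to 5.01) and was not shown to be above background, so the fold depends on that baseline. Only 10 of the 53617 transcript clusters had a larger difference, and among the 16098 with a gene symbol PALMD ranked 2. The BT-A6sh2 mean was 4.90 ± 0.432, lower by 0.07 than in BT-EV, and this wide spread came from replicate 3. It also widened the SE of the BT-A6sh5 difference, as the lines share 1 estimate of the spread. Without replicate 3 the difference from BT-EV was -0.29, and without replicate 1 it was 0.00. With the hybridization controls as a covariate, the PALMD differences from BT-EV were 5.95 in BT-A6sh5 and -0.50 in BT-A6sh2.

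ENAH was likewise high in BT-A6sh5 alone, on a smaller scale. In BT-EV its levels were 7.55, 7.60, 7.65 and 7.54. BT-A6sh5 gave 8.77, 8.75, 8.90 and 8.98, and BT-A6sh2 gave 7.42, 7.57, 7.40 and 7.52. The BT-A6sh5 arrays again lay above all others, by at least 1.10 over BT-EV, while the arrays of BT-EV and BT-A6sh2 overlapped. ENAH was 1.26 higher in BT-A6sh5 than in BT-EV (means 8.85 ± 0.112 and 7.58 ± 0.050, SE 0.0854), which is 2.40-fold. In BT-A6sh2 the mean was 7.48 ± 0.0798, a difference of -0.11 from BT-EV with the same SE. The spread of ENAH within lines was small, with a pooled SD of 0.0847 against a median of 0.176 over the transcript clusters with a symbol. With the hybridization covariate the differences were 1.18 and -0.22.

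TAGLN was higher in both knockdown lines. Its levels were 6.74, 7.15, 6.76 and 6.94 in BT-EV. They were 8.09, 8.36, 8.06 and 8.09 in BT-A6sh5. In BT-A6sh2 they were 7.64, 7.53, 7.71 and 7.47. The 3 lines did not overlap, with BT-A6sh2 in between. The mean was 6.90 ± 0.192 in BT-EV, 7.59 ± 0.110 in BT-A6sh2 and 8.15 ± 0.142 in BT-A6sh5. The difference from BT-EV was 1.25 (SE 0.116), or 2.38-fold, in BT-A6sh5. It was 0.69, or 1.61-fold, in BT-A6sh2. The BT-A6sh5 level was 0.56 above that of BT-A6sh2, with 0.35 between the nearest arrays.

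TNS3 ran the opposite way. BT-EV gave levels of 9.02, 9.06, 9.01 and 9.12. BT-A6sh5 gave 8.23, 8.20, 8.21 and 7.996. BT-A6sh2 gave 8.82, 8.40, 8.63 and 8.50. Every knockdown array lay below every BT-EV array, and the BT-A6sh2 arrays lay between the other lines. Means were 9.05 ± 0.0494 in BT-EV, 8.59 ± 0.183 in BT-A6sh2 and 8.16 ± 0.109 in BT-A6sh5. TNS3 was 0.89 lower on the log2 scale in BT-A6sh5 than in BT-EV (SE 0.103), which is 1.86-fold lower. In BT-A6sh2 it was 0.46 lower, or 1.38-fold, with only 0.18 between the nearest arrays. Without BT-A6sh2 replicates 1 and 3 the TNS3 difference of that line from BT-EV was -0.60, and that between the knockdown lines changed from -0.43 to -0.29. With the hybridization covariate, the differences of TAGLN and TNS3 kept their direction and moved by less than their pooled SD within lines.

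**Figure D1:**
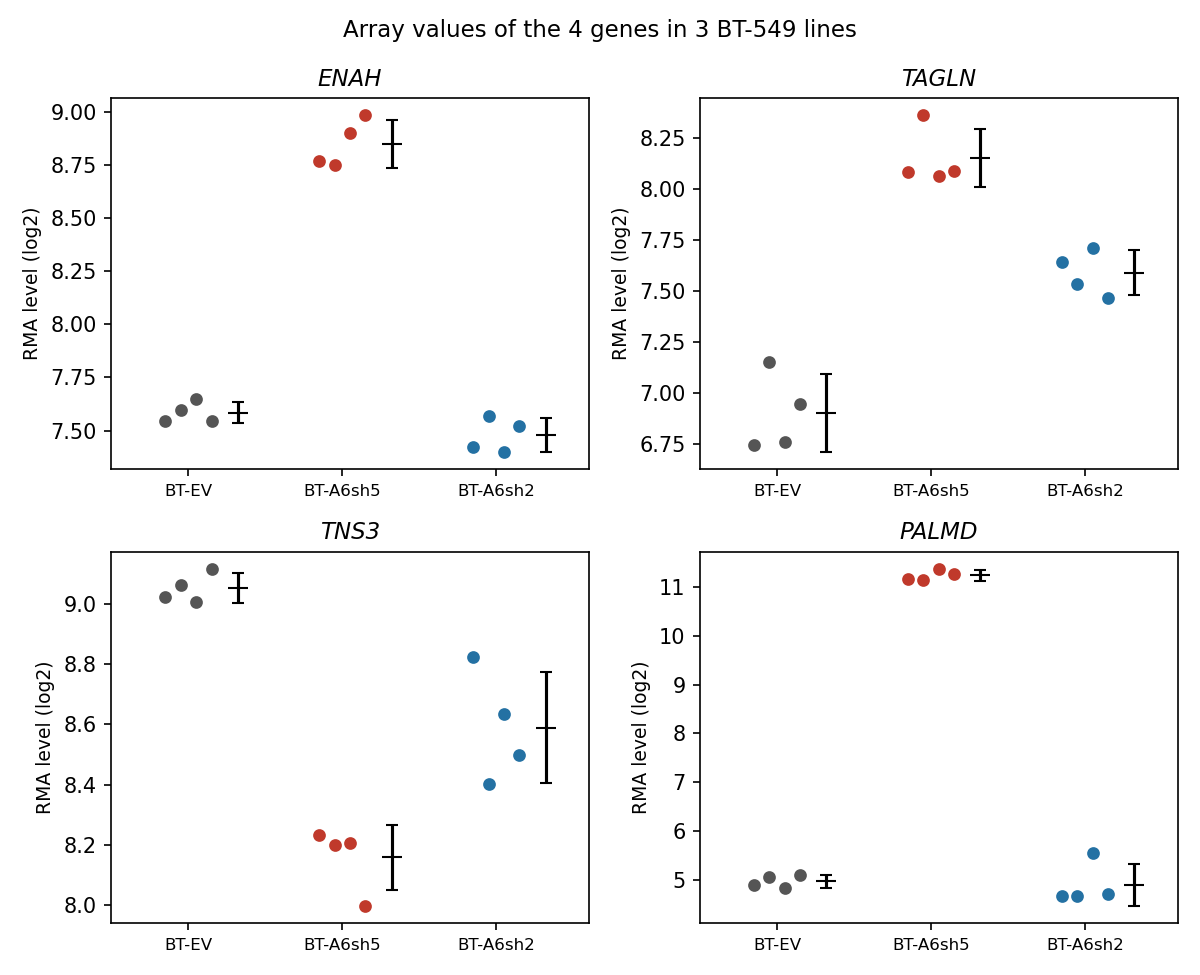
Each point is 1 array, the horizontal bar the mean and the vertical bar the SD of 4 arrays, and the vertical axes give the RMA level on the log2 scale, with a different range in each panel. PALMD and ENAH were high in BT-A6sh5 alone, at means of 11.24 and 8.85, while TAGLN and TNS3 ordered the 3 lines without overlap, TAGLN upward from 6.90 to 8.15 and TNS3 downward from 9.05 to 8.16.

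The arrays of BT-A6sh5 and BT-EV did not overlap for 4 of 4 genes, and this held for 23.6% of all transcript clusters. For BT-A6sh2 and BT-EV it was 2 of 4 (TAGLN and TNS3) beside 18.4%, and for the knockdown lines 4 of 4 beside 20.5%. Since the genes were chosen on these fold changes, nothing is read from these counts. Both comparisons with BT-EV share its 4 arrays. From high to low, the ANXA6 level had the order BT-EV, BT-A6sh2, BT-A6sh5. TNS3 levels had the same order and TAGLN levels the reverse, whereas ENAH and PALMD had BT-EV and BT-A6sh2 side by side. Each ANXA6 level is that of a single line and the genes were chosen on these values, so nothing is read from this order. A dependence on the ANXA6 level was not tested. Across the 12 arrays, Pearson's r was 0.986 for ENAH with PALMD and -0.900 for TAGLN with TNS3. After the mean of each line was taken off, the same pairs gave -0.250 and 0.383. For these pairs the first values thus come with the differences between lines, and the arrays share their 3 lines. ENAH with TNS3 kept its sign, at -0.802 before and -0.741 after, as did TAGLN with PALMD, at 0.808 and 0.371. ENAH with TAGLN went from 0.751 to -0.465, and TNS3 with PALMD from -0.809 to 0.149.

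The 3 genes whose levels most resembled those of each member over the 12 arrays were taken by Pearson's r among the transcript clusters with a symbol. For PALMD these were PTGS2 (r = 0.996), MME (0.995) and IGFBP4 (0.993). PTGS2, the inducible cyclooxygenase, averaged 8.80 in BT-A6sh5, against 3.51 in BT-EV and 3.77 in BT-A6sh2. Its BT-EV and BT-A6sh2 levels lay below the array median and were not shown to be above background. For ENAH they were LIAT1, CD70 and CCBE1, each at 0.991. CCBE1 averaged 9.98 in BT-A6sh5, against 5.02 in BT-EV and 4.55 in BT-A6sh2. The BT-EV level of CCBE1 lay near the array median and that in BT-A6sh2 below it, neither shown to be above background. For TAGLN they were PDGFB (0.983), PCDH7 (0.976) and ADGRG1 (0.975). PCDH7, a protocadherin, was at 5.07, 8.13 and 6.75 in BT-EV, BT-A6sh5 and BT-A6sh2, the BT-EV level being near the array median. For TNS3 they were LPCAT1 (0.988), BTBD2 (0.987) and the microRNA gene MIR503 (0.983). With the line means taken off, r in the order named was 0.512, -0.189 and 0.196 for PALMD, 0.613, 0.123 and 0.0587 for ENAH, 0.892, 0.499 and 0.588 for TAGLN and 0.870, 0.931 and 0.840 for TNS3. The choice of these genes used the same arrays. Under Spearman's rank correlation, which does not use the size of a difference, 1 of the 3 TAGLN genes and 0 of the 3 genes of each other member were again among the first 3.

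The relatives of the 4 genes, listed with earlier results of these data known, were tested in the limma fit, with p-values adjusted after Benjamini-Hochberg across all transcript clusters and a threshold of 0.05. At that threshold, BT-A6sh5 was above BT-EV for 6.30% of 14884 named genes and below it for 12.7% (4.11% and 6.71% of all transcript clusters). In BT-A6sh2 5.13% of named genes were higher and 4.78% lower (5.35% and 3.13% of all). BT-A6sh5 was higher than BT-A6sh2 for 11.3% of named genes and lower for 17.3% (8.16% and 11.4% of all). The median difference over named genes was 0.01 in BT-A6sh5 and 0.00 in size in BT-A6sh2.

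In the Ena/VASP family and its barbed-end partners, 1 of 8 measured genes rose and 1 fell in BT-A6sh5, and 0 passed in BT-A6sh2, where 1 was higher at an unadjusted p under 0.05. VASP, the family's founding member, rose by 0.34 in BT-A6sh5 (SE 0.0976, adjusted p = 0.0429). The third member, EVL, passed in neither line, at -0.09 (BT-A6sh5, adjusted p = 0.781) and 0.19 (BT-A6sh2, adjusted p = 0.322). RAPH1 (lamellipodin), which brings Ena/VASP proteins to the leading edge, fell by 0.32 in BT-A6sh5 (adjusted p = 0.0354). The profilins, which feed actin monomers to growing ends, differed by 0.11 (PFN1) and -0.14 (PFN2) in BT-A6sh5 and passed in neither line. Neither did the adhesion proteins ZYX and LPP, at 0.11 and 0.00. TRIP6, a relative of zyxin, differed by -0.37 in BT-A6sh5 (adjusted p = 0.0509) and by 0.28 in BT-A6sh2, and was 0.65 lower in BT-A6sh5 than in BT-A6sh2 (adjusted p = 0.00143).

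Among the relatives of TAGLN, TAGLN2 fell in BT-A6sh5 but did not pass in BT-A6sh2, though TAGLN was higher in both. TAGLN2 levels were 8.33, 8.45, 8.35 and 8.42 in BT-EV and 7.86, 7.72, 7.90 and 7.86 in BT-A6sh5, without overlap. Its difference was -0.55 (SE 0.0778, adjusted p = 0.000595) in BT-A6sh5 and -0.09 (adjusted p = 0.479) in BT-A6sh2. TAGLN3, the neuronal transgelin, was at 0.07 and 0.00. The calponin CNN2 passed in neither line, at 0.16 and -0.22, but was 0.38 higher in BT-A6sh5 than in BT-A6sh2 (adjusted p = 0.0279), where its second transcript cluster gave 0.22 (adjusted p = 0.344). Of the 3 measured genes, 1 thus fell in BT-A6sh5 and 0 passed in BT-A6sh2, where 0 also had an unadjusted p under 0.05.

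The other tensins did not pass in either line. TNS1 differed from BT-EV by -0.05 in BT-A6sh5 and -0.13 in BT-A6sh2, TNS2 by -0.13 and 0.00 in size, and TNS4 by 0.35 (adjusted p = 0.367) and -0.06. DLC1, a tumour suppressor protein that tensins bind, rose in BT-A6sh5. Its levels were 4.43, 4.55, 4.62 and 4.60 in BT-EV, 6.02, 5.64, 5.93 and 5.60 in BT-A6sh5 and 4.40, 4.55, 4.72 and 4.70 in BT-A6sh2. The difference was 1.25 (SE 0.117, adjusted p = 2.56e-05) in BT-A6sh5 and 0.04 (adjusted p = 0.841) in BT-A6sh2, from a BT-EV level below the array median that was not shown to be above background. Its relatives STARD13 and STARD8 differed by -0.34 and -0.27 in BT-A6sh5 and passed in neither line, though STARD13 was 0.54 lower in BT-A6sh5 than in BT-A6sh2 (adjusted p = 0.0124). Of the 6 measured genes, 1 rose in BT-A6sh5, and in BT-A6sh2 0 passed and 0 had an unadjusted p under 0.05.

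No paralemmin rose with PALMD in this test. PALM2AKAP2, the joint locus of paralemmin 2 and a kinase anchor protein, fell by 0.52 in BT-A6sh5 (SE 0.0879, adjusted p = 0.00195) and was 0.20 above BT-EV in BT-A6sh2 (adjusted p = 0.167). Its levels were 6.66, 6.83, 6.80 and 6.89 in BT-EV, 6.32, 6.40, 6.23 and 6.13 in BT-A6sh5 and 6.96, 7.02, 7.03 and 6.97 in BT-A6sh2, so that the lines did not overlap. PALM, the founding member, differed by -0.32 (adjusted p = 0.0859) and -0.19, and PALM3 by -0.02 and -0.12. Of these 3 genes, 1 fell in BT-A6sh5 and 0 passed in BT-A6sh2, where 1 was higher at an unadjusted p under 0.05.

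**Figure D2:**
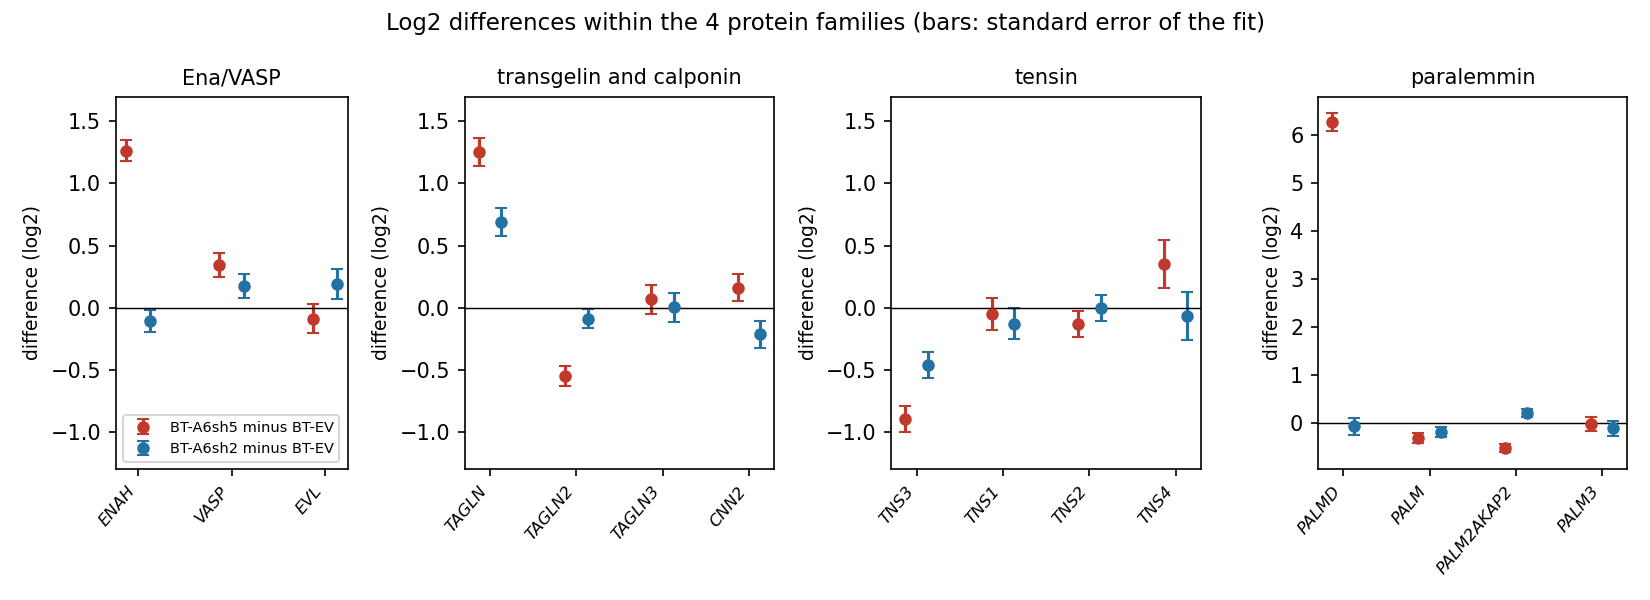
Points give the log2 difference of a knockdown line from BT-EV and bars its standard error in the fit, with 1 panel per protein family, a member first in each and a wider axis for the paralemmins. PALMD stood at 6.27 in BT-A6sh5 where its relatives lay between -0.52 and -0.02, and TAGLN and TAGLN2 had opposite signs at 1.25 and -0.55.

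The wider set held 178 actin genes in 15 lists, of which 104 were measured under a symbol, with some genes in more than 1 list. The other 74 are not used here, among them all 5 actin isoforms and 11 of 12 genes of non-muscle myosin II and its kinases. In BT-A6sh5 14 of the 104 genes rose (13.5%) and 15 fell (14.42%), with a median difference of 0.03. In BT-A6sh2 0 rose in the limma test (11 were higher at an unadjusted p under 0.05) and 16 fell (15.4%), with a median of -0.06. Between the knockdown lines, 24 were higher in BT-A6sh5 (23.1%) and 10 lower (9.62%). The shares of all named genes were 6.30% and 12.7% for rises and falls in BT-A6sh5, 5.13% and 4.78% in BT-A6sh2, and 11.3% and 17.3% between the knockdown lines, and the list was not tested against them. The count of falls in BT-A6sh2 was 5, 5, 6 and 4 without BT-EV replicates 1, 2, 3 and 4, respectively, and 10 without BT-A6sh2 replicate 3. The 0 rises in BT-A6sh2 became 3 without BT-A6sh2 replicate 2. With the hybridization covariate, 4 genes rose and 1 fell in BT-A6sh5 and 0 passed in BT-A6sh2. The shares of named genes above belong to the main fit, and those under these other settings are not given. The changed counts therefore cannot be set against them or read as particular to the list.

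Tropomyosins, which lie along actin filaments and set which proteins may bind them, included TPM1, which differed from BT-EV in opposite directions in the knockdown lines. Of 10 tropomyosins, tropomodulins and leiomodins, 3 rose and 0 fell in BT-A6sh5, and 0 rose and 2 fell in BT-A6sh2. TPM1 levels were 7.78, 7.95, 7.85 and 7.91 in BT-EV, 8.75, 8.76, 8.77 and 8.61 in BT-A6sh5 and 7.09, 7.16, 7.04 and 7.07 in BT-A6sh2. TPM1 thus rose by 0.85 in BT-A6sh5 (SE 0.0791, adjusted p = 2.37e-05) and fell by 0.78 in BT-A6sh2 (adjusted p = 0.000382). The second TPM1 transcript cluster was also called in BT-A6sh5, where it rose by 1.76 (adjusted p = 3.35e-05), and differed by -0.31 in BT-A6sh2 (adjusted p = 0.264). In BT-A6sh5 TPM2 rose by 0.65 (adjusted p = 0.00134). TMOD2, a pointed-end cap, fell by 0.55 in BT-A6sh2 (adjusted p = 0.0245). Of the 8 smooth muscle contractile genes, the group TAGLN is known from, 2 rose and 1 fell in BT-A6sh5, and 0 rose and 2 fell in BT-A6sh2. The 2 that rose were the tropomyosins TPM1 and TPM2, while SMTN (smoothelin) fell by 0.40 (adjusted p = 0.0367). MYLK, the myosin light chain kinase, fell by 0.71 in BT-A6sh5 (adjusted p = 0.000567) and by 0.55 in BT-A6sh2 (adjusted p = 0.00993). SRF, the serum response factor itself, rose by 0.46 in BT-A6sh5 (SE 0.1, adjusted p = 0.0105) and was 0.22 above BT-EV in BT-A6sh2 (adjusted p = 0.182). SRF was at 0.26 (adjusted p = 0.712) in BT-A6sh5 once the hybridization controls entered as a covariate. Without that covariate it was the 1 gene of 5 measured SRF pathway regulators to pass in BT-A6sh5, and 0 passed in BT-A6sh2, where 1 was higher and 1 lower at an unadjusted p under 0.05. Of 4 TGF-beta response genes, 1 fell in each knockdown line. It was SKIL, a repressor of SMAD signalling, at -0.99 (BT-A6sh5, adjusted p = 0.000492) and -0.65 (BT-A6sh2, adjusted p = 0.0177).

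Formins build unbranched filaments at barbed ends, where ENAH also acts. Of 15 formins and Spire nucleators, 3 rose and 3 fell in BT-A6sh5, and 0 rose and 2 fell in BT-A6sh2. FMN1 rose by 1.60 in BT-A6sh5 (SE 0.118, adjusted p = 3.2e-06), from 4.80 to 5.08 in the BT-EV arrays to 6.28 to 6.81, and was at 0.01 in BT-A6sh2. Its BT-EV level was at the array median and was not shown to be above background. In BT-A6sh5 FMN2 rose by 1.00 (adjusted p = 0.00316), whereas it fell by 1.15 in BT-A6sh2 (adjusted p = 0.00487). FMN2 levels of 4.09 to 5.003 in BT-A6sh2, 5.44 to 5.72 in BT-EV and 6.44 to 6.76 in BT-A6sh5 did not overlap, the BT-A6sh2 mean being below the array median. FMNL1 fell by 1.03 in BT-A6sh5 (adjusted p = 0.000158). Of 20 genes listed for the Arp2/3 complex and its activators, which make branched networks, 6 were measured. Among these 6, 0 rose and 2 fell in BT-A6sh5. These were the activators ABI1, at -0.58 (adjusted p = 0.000469), and WASL, at -0.35 (adjusted p = 0.0323). ACTR3, a subunit of the complex itself, was at 0.07 (adjusted p = 0.821). ABI1 also fell in BT-A6sh2, by 0.31 (adjusted p = 0.0364), the 1 gene of the 6 to do so.

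Among 12 genes of capping, severing and turnover, 2 rose and 2 fell in BT-A6sh5, and 0 rose and 2 fell in BT-A6sh2. SSH2, a phosphatase that activates cofilin, rose by 1.33 in BT-A6sh5 (SE 0.0783, adjusted p = 4.89e-07). SSH2 levels went from 6.61 to 6.83 in BT-EV to 7.99 to 8.04 in BT-A6sh5, and BT-A6sh2 lay at 6.46 to 6.58 (difference -0.18, adjusted p = 0.163). In BT-A6sh5 CFL2, the muscle cofilin, rose by 0.52 (adjusted p = 0.0357). SVIL (supervillin) fell in both lines, at -0.58 (BT-A6sh5, adjusted p = 0.000887) and -0.35 (BT-A6sh2, adjusted p = 0.0312). Of 8 crosslinkers and membrane linkers, which act on filaments as TAGLN does or tie them to the membrane, 0 rose and 1 fell in BT-A6sh5, and 0 rose and 3 fell in BT-A6sh2. SYNPO (synaptopodin) likewise fell, at -0.79 (BT-A6sh5, adjusted p = 0.000222) and -0.39 (BT-A6sh2, adjusted p = 0.0331). RDX (radixin) fell by 0.54 (adjusted p = 0.0199) and PLS3 (plastin 3) by 0.50 (adjusted p = 0.032) in BT-A6sh2.

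Focal adhesions are where TNS3 acts. Of 18 adhesion adaptors, 3 rose and 1 fell in BT-A6sh5, and 0 rose and 3 fell in BT-A6sh2. In BT-A6sh5 TLN2 (talin 2) rose by 0.79 (adjusted p = 0.000171), and it was at -0.07 in BT-A6sh2. FERMT1 (kindlin 1) also rose by 0.79 there (adjusted p = 0.000662), and it was at 0.33 in BT-A6sh2 (adjusted p = 0.0907). VCL (vinculin) fell in BT-A6sh2. Its levels were 10.81, 10.89, 10.78 and 10.83 in BT-EV, 10.25, 10.32, 10.22 and 10.17 in BT-A6sh2, and 10.78 to 11.13 in BT-A6sh5. The VCL difference was -0.59 (SE 0.0942, adjusted p = 0.00529) in BT-A6sh2 and 0.08 (adjusted p = 0.719) in BT-A6sh5.

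**Figure D3:**
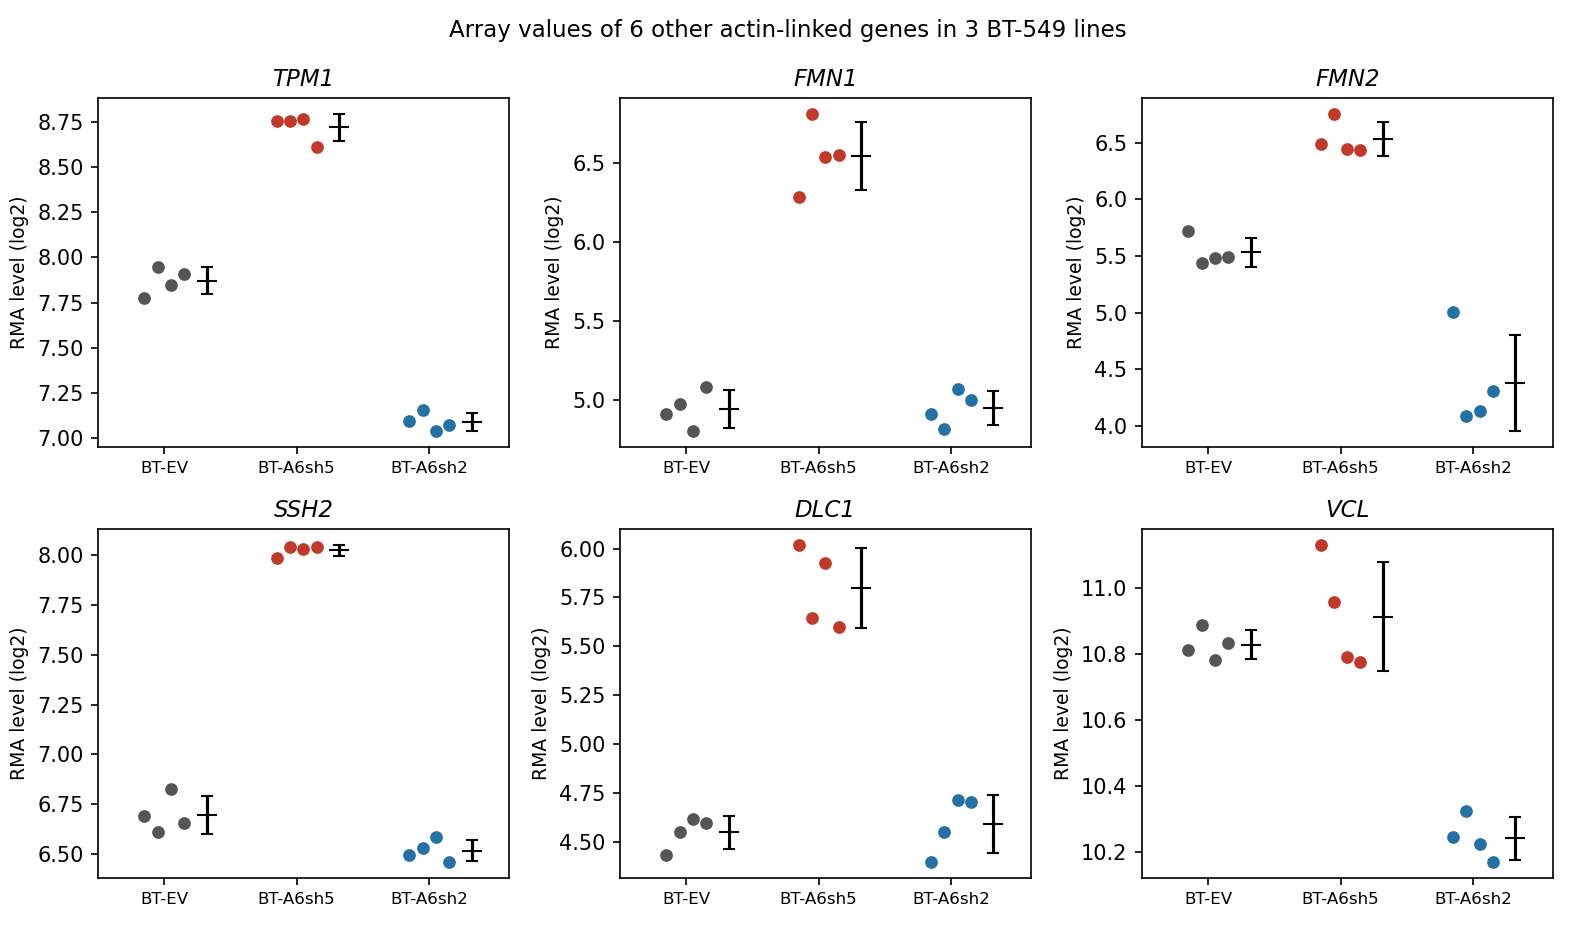
Points are arrays, with the mean and SD of 4 arrays beside them, for 6 genes of the wider lists on the RMA log2 scale, each panel with its own range. TPM1 and FMN2 lay above BT-EV in BT-A6sh5 and below it in BT-A6sh2, FMN1, SSH2 and DLC1 were higher in BT-A6sh5, and VCL was lower in BT-A6sh2.

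Several of these calls lay near the threshold and were lost when 1 array was left out, while the difference itself moved little. In BT-A6sh5 the call of VASP was lost without any 1 of the BT-EV arrays, BT-A6sh5 replicate 1, 3 or 4 or BT-A6sh2 replicate 4 (adjusted p = 0.0504 to 0.131 in limma, difference 0.29 to 0.37). That of RAPH1 was lost without any BT-EV array or BT-A6sh5 replicate 1, 2 or 3 (adjusted p = 0.0524 to 0.119, difference -0.35 to -0.29). SMTN lost its call without any BT-EV array or BT-A6sh5 replicate 1 or 2 (0.0733 to 0.111, difference -0.42 to -0.32), and CFL2 without any BT-EV or BT-A6sh5 array (0.0678 to 0.0969, difference 0.51 to 0.54). For WASL it was BT-EV replicate 1, 3 or 4 or BT-A6sh5 replicate 2, 3 or 4 (0.065 to 0.104, difference -0.36 to -0.32). TRIP6, in contrast, passed in BT-A6sh5 without BT-A6sh5 replicate 2 or BT-A6sh2 replicate 1, 2 or 3 (0.0387 to 0.0496, difference -0.42 to -0.37).

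In BT-A6sh2 the calls of ABI1, PLS3, SVIL, SYNPO and TMOD2 were lost without any 1 of the BT-EV arrays. Other arrays that ended a call were BT-A6sh5 replicates 1 and 3 for ABI1, BT-A6sh2 replicate 3 for ABI1, PLS3 and SVIL, replicate 4 for SVIL and replicate 1 for SYNPO. The limma adjusted p then was 0.0511 to 0.109 for ABI1, 0.0652 to 0.0905 for PLS3, 0.0521 to 0.0913 for SVIL, 0.0543 to 0.0949 for SYNPO and 0.0588 to 0.0719 for TMOD2. The differences stayed at -0.33 to -0.29 for ABI1, -0.52 to -0.47 for PLS3, -0.38 to -0.33 for SVIL, -0.42 to -0.32 for SYNPO and -0.56 to -0.53 for TMOD2. RDX lost its call without BT-EV replicate 1, 2 or 4 (0.0561 to 0.063, difference -0.55 to -0.51), and SKIL without BT-EV replicate 3 or 4 (0.052 to 0.0614, difference -0.65 to -0.59). FERMT1 passed in BT-A6sh2 without BT-A6sh2 replicate 2 (0.0207). The calls of TPM1, FMN2, MYLK and VCL in BT-A6sh2 held without each array in turn.

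The hybridization covariate, whose level differs between the lines, ended more calls in limma. In BT-A6sh5 those of TPM1, DLC1, FMN1, SSH2 and FMNL1 were kept and those of the other named list genes were lost. The differences that shrank by more than 1.5-fold there were those of SRF, as given above, VASP, to 0.13 (adjusted p = 0.877), MYLK, to -0.42 (adjusted p = 0.361), and WASL, to -0.13 (adjusted p = 0.871). In BT-A6sh2 all the calls of named list genes were lost. TPM1 and FMN2 remained at -0.76 and -1.06 (adjusted p = 0.406 and 0.574), while MYLK went to -0.15 (adjusted p = 0.905) and VCL to -0.37 (adjusted p = 0.703). Shrinkage past 1.5-fold was also seen for TMOD2 (-0.09), PLS3 (-0.13), ABI1 (-0.16), SYNPO (-0.26), RDX (-0.27) and SKIL (-0.31), with adjusted p from 0.837 to 0.963.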

How the data were processed

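Total RNA of 12 samples (4 arrays of each of 3 BT-549 lines) was hybridized to Affymetrix arrays. The authors used Expression Console with RMA, and the deposited values are log2 signals of 53617 transcript clusters. The submitters' processing notes name affy, RMA and limma, with versions and genome build not given in the sources used here. RMA's quantile normalization forces the probe signals of the arrays to 1 distribution, so a shift of most genes cannot be seen. The transcript cluster values made from them still differed in spread between arrays (SD 2.18 to 2.33). The values were used as deposited, with 0 missing, and the number of arrays limits their precision. Symbols came from the platform annotation, with 16098 transcript clusters of 1 symbol, 0 of several and 37519 without. A gene with several transcript clusters was read by that of highest mean.

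Lines were compared in limma (version 3.58.1, R 4.3.3) by lmFit and eBayes with a mean for each of the 3 lines, 9 residual degrees of freedom and 2.68 from the prior. The lines shared 1 estimate of the spread, but array weights were 1.95 to 2.39 in BT-EV and 0.247 to 0.747 in BT-A6sh2. An SE can thus be too wide for BT-A6sh5 against BT-EV and too narrow where BT-A6sh2 takes part. Two-sided p-values were adjusted after Benjamini-Hochberg across the transcript clusters of a comparison, with a threshold of 0.05. The procedure was tested on simulated data. The members and lists were chosen with earlier results of these data known, and no p is given for the members. Named genes were the members, ANXA6, every measured gene of their 4 families, up to 3 genes with the largest difference among those past the threshold in each other list, and the 3 most correlated genes per member. A list written earlier is not reported here. Promoters were matched by symbol for 3 of 4 members, not TAGLN, from RefSeq (GRCh38.p14). The alternatives were each comparison fitted on its 2 lines, a trended robust prior, transcript clusters above the median, a repeated quantile normalization, median centring, the replicate number as a block, array weights, a test against a 1.2-fold change (treat), Spearman's correlation and arrays left out. Python 3.11.15 with pandas 2.3.3 and matplotlib 3.10.9 served for tables and figures.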

Additional observations from a re-analysis of the deposited data

Results flagged for a closer look

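Of 138 groups of 4 arrays examined, 8 held an array far from the other 3 by Dixon's criterion, which chance meets in about 1 of 20 groups. Among the members, TAGLN was at 8.36 in BT-A6sh5 replicate 2 against 8.06 to 8.09 in the others, TNS3 at 7.996 in BT-A6sh5 replicate 4 against 8.20 to 8.23, and PALMD at 5.54 in BT-A6sh2 replicate 3 against 4.67 to 4.70. None of these arrays crossed into another line for TAGLN or TNS3. Of the other genes, RAPH1 was at 8.95 in BT-A6sh2 replicate 3, CNN2 at 11.22 and FMN2 at 6.76 in BT-A6sh5 replicate 2, TPM1 at 8.61 in BT-A6sh5 replicate 4 and SSH2 at 7.99 in BT-A6sh5 replicate 1.

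The knockdown lines differed from each other for several genes. For ENAH, all BT-A6sh5 arrays lay above and all BT-A6sh2 arrays below the BT-EV mean, and the lines were 1.37 apart on the log2 scale. This difference was not tested, since ENAH was chosen on its values. In limma's test of BT-A6sh5 minus BT-A6sh2, the difference passed in the positive direction for FMN2 (2.15), TPM1 (1.63), FMN1 (1.60), SSH2 (1.51), DLC1 (1.21), TLN2 (0.86), CFL2 (0.83), VCL (0.67), RDX (0.64), PLS3 (0.55), TPM2 (0.53) and FERMT1 (0.46). It passed in the negative direction for FMNL1 (-0.86), PALM2AKAP2 (-0.72), TAGLN2 (-0.46), SYNPO (-0.40) and ABI1 (-0.27). Of the named genes called in neither comparison with BT-EV, TRIP6 (-0.65), STARD13 (-0.54) and CNN2 (0.38) also passed between the knockdown lines. The adjusted p ran from 7.87e-08 for TPM1 to 0.0345 for ABI1.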

How the results depend on the processing

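The differences of the 4 members kept their direction under every alternative where the lines did not overlap. Without BT-A6sh2 replicates 1 and 3, TNS3 moved to -0.60 from BT-EV in BT-A6sh2 and to -0.29 between the knockdown lines. This was more than its pooled SD within lines (0.126) but less than its SD in BT-A6sh2 (0.183). Chosen after seeing the data, the hybridization controls as a covariate gave ENAH 1.18 in BT-A6sh5 and -0.22 in BT-A6sh2, and PALMD 5.95 and -0.50. The PALMD difference between BT-A6sh2 and BT-EV, whose arrays overlap, ranged from -0.29 to 0.00 with single arrays left out.

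The counts of the 104 list genes moved more. Against 14 rises and 15 falls in BT-A6sh5 and 0 rises and 16 falls in BT-A6sh2, lines fitted alone gave 23 rises in BT-A6sh5 and 4 falls in BT-A6sh2. A trended robust prior gave 22 and 5 rises in the 2 lines, and the transcript clusters above the median 22 and 4. Median centring gave 3 rises and 10 falls in BT-A6sh2. Array weights gave 24 rises and 24 falls in BT-A6sh5. The test against a 1.2-fold change left 8 rises and 7 falls in BT-A6sh5, 0 and 2 in BT-A6sh2, and 11 higher and 4 lower between the knockdown lines. The hybridization covariate left 4 and 1 in BT-A6sh5 and 0 and 0 in BT-A6sh2. With single arrays left out, falls in BT-A6sh5 ran from 10 to 17, and in BT-A6sh2 rises ran from 0 to 3 and falls from 4 to 17. The share of all named genes under each of these settings is not given, so the shifts cannot be read as particular to the list. The cause of these shifts was not tested.

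The deviations of same-numbered arrays correlated between -0.0764 and 0.0497, and 4 of 12 arrays matched best under their own number. Whether same-numbered arrays shared a step of processing was not tested. The hybridization controls rose with the replicate number in BT-EV and BT-A6sh5, and in BT-A6sh2 up to replicate 3. With the replicate block, falls in BT-A6sh2 went to 5. Of the calls of single named genes, the block lost 11 and the hybridization covariate 28. The small number of arrays limits what differences near the threshold can show.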
